A study of Homo sapiens with 8 samples.

Results

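The unfolded protein response is described here through 10 of its genes, which code for chaperones, co-chaperones and other factors that serve the endoplasmic reticulum (ER). The genes HSPA5, HSP90B1, DNAJB9, DNAJB11, XBP1, HERPUD1, SDF2L1, PDIA4, CALR and HYOU1 were taken by name from a table of 62649 genes. All 10 were found once, and all 10 were among the 19122 genes that reached a TPM (the share of a library's transcripts, scaled to a fixed total) of 1 in at least 2 libraries. RNA was sequenced from spheroids of AsPC-1 and PANC-1 cells, 2 established human pancreatic cancer lines that the labels call wild type. Each line was grown in a methylcellulose medium for 3 days, then exposed for 24 h to 1 of 4 treatments: the vehicle, roseoflavin at 10 µM, trametinib at 1 nM, or the 2 compounds combined. Roseoflavin is a natural analogue of riboflavin (vitamin B2), and trametinib blocks the MEK kinases of the RAS pathway. Each line and treatment was represented by 1 library, 8 in all, so no treatment had a replicate within a line.

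Secreted and membrane proteins fold in the ER with the help of chaperones and disulfide-forming enzymes. When unfolded proteins build up, the sensors IRE1, PERK and ATF6 signal to the nucleus. ATF6 and the spliced form of XBP1 then bind short promoter elements of ER chaperone genes, while PERK acts through translation and the factor ATF4. The pathway is best known in secretory tissues such as the exocrine pancreas, whose cells make large amounts of protein for export. Among the 10 genes, HSPA5 (BiP), HSP90B1 (GRP94), HYOU1 (GRP170) and CALR (calreticulin) code for chaperones of the ER lumen. DNAJB9 and DNAJB11 code for J-domain partners of BiP, SDF2L1 for a partner of DNAJB11, and PDIA4 for a disulfide isomerase. HERPUD1 codes for a membrane protein of ER-associated degradation and XBP1 for a transcription factor, so neither is a chaperone. The splicing of XBP1 that makes the active factor cannot be read from values per gene.

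The promoter elements are shown first because they are how these genes are known to be switched on together. The 250 bases before each gene's RefSeq start (build GRCh38.p14) were searched on both strands for 4 motifs. The ER stress element (ERSE) was CCAAT and CCACG with 9 bases between them. ERSE-II was ATTGG and CCACG with 1 base between them. The UPRE core was TGACGTGG, and the bare CCACG is part of both ERSE forms. ERSE was found in 4 of the 10 genes, against 0.0740% of 35116 promoters of the same length. ERSE-II was found in 3 of 10, against 0.0513%. One or the other was found in 7 of 10, against 0.125%. The UPRE core was found in HYOU1, where it overlapped an ERSE-II, against 0.612% of promoters. CCACG was found in 9 of 10, against 33.5%. These are matches of letters, and binding was not measured. The elements were already known for genes of this set, so the contrast with all promoters is not a test. A gene counted if any of its windows matched (12 windows for the 10 genes), while the share counts promoters. The matches are given below 5′ to 3′ on the strand of the gene, with the motif in capitals; where the motif lies on the opposite strand, the capitals read as its reverse complement.
HSP90B1, first ERSE, chr12:103930211-103930239, plus strand: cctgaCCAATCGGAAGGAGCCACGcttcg
HSP90B1, second ERSE (opposite strand), chr12:103930316-103930344, plus strand: gggtgCGTGGTGCGGCGCGATTGGtgggt
XBP1, ERSE, chr22:28800598-28800626, minus strand: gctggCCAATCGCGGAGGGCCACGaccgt
CALR, ERSE (opposite strand), chr19:12938379-12938407, plus strand: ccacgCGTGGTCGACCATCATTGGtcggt
HERPUD1, ERSE-II, chr16:56932020-56932040, plus strand: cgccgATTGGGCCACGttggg
SDF2L1, ERSE-II (opposite strand), chr22:21642109-21642129, plus strand: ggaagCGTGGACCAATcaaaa

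HSPA5 and HYOU1 are given with longer context. HSPA5 had a single exact match to ERSE, close to its start. HYOU1 had 2 exact ERSE-II matches on the opposite strand with the UPRE core running into the first of them. Copies that differ from a motif by a letter were not searched for.
HSPA5, chr9:125241344-125241493, minus strand: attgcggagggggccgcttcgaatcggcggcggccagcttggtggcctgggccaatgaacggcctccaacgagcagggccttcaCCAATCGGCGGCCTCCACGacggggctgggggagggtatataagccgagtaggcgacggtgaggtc
HYOU1, chr11:119057259-119057408, minus strand: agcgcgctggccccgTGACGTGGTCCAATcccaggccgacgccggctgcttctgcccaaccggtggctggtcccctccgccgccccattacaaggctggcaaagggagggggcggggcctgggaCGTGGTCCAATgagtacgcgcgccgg
Neither ERSE form was found in the window of DNAJB9, DNAJB11 or PDIA4. Of these, DNAJB9 and PDIA4 held a bare CCACG.

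**Figure D1:**
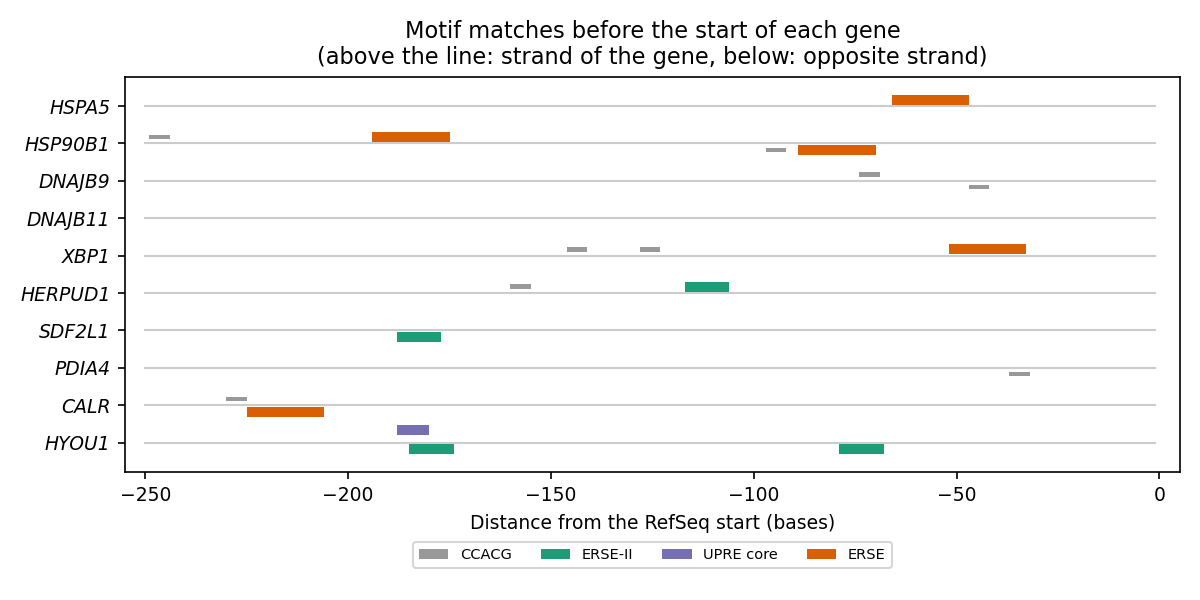
Positions of the motif matches in the 250 bases before the RefSeq start of each gene (x axis, distance from the start in bases), with matches on the strand of the gene above each line and matches on the opposite strand below it. A CCACG that lies inside an ERSE or ERSE-II is covered by the bar of that motif. The 4 genes with an ERSE and the 3 with an ERSE-II are seen in orange and green.

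In GENCODE 29 (GRCh38) the genes lie at chr9:125234853-125241330 (HSPA5), chr12:103930107-103953645 (HSP90B1), chr7:108569568-108574850 (DNAJB9), chr3:186567403-186585800 (DNAJB11) and chr22:28794555-28800597 (XBP1). The others lie at chr16:56932048-56944863 (HERPUD1), chr22:21642261-21644298 (SDF2L1), chr7:149003062-149028641 (PDIA4), chr19:12938578-12944489 (CALR) and chr11:119044189-119057202 (HYOU1). The HSP90B1 matches fall inside the span of its GENCODE gene, and the other matches printed lie before the first base of theirs.

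The lines matched their labels. EPCAM, an epithelial adhesion gene, was at 1224 to 1485 TPM in AsPC-1 and 14.5 to 16.8 TPM in PANC-1, and VIM, the gene of vimentin, was at 660 to 816 TPM and 3132 to 3391 TPM. The share taken by transcripts of the mitochondrial genome was 41.2% to 44.1% in the AsPC-1 libraries and 22.8% to 25.6% in those of PANC-1. Since TPM is a share of a fixed total, this gap enters the level of every other gene. The depth is unknown, because each library sums to the same total.

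In TPM, 9 of the 10 genes had every PANC-1 library above every AsPC-1 library, against 59.4% of all genes, and the same 9 passed the test. After leaving out the mitochondrial transcripts and rescaling, an alternative chosen after seeing the data, the count was 6 of 10 (HSPA5, DNAJB9, DNAJB11, PDIA4, CALR, HYOU1), against 46.9% of all genes. In bulk RNA, fewer cells with a transcript and less transcript per cell cannot be told apart. TPM is per length, so levels of different genes can be set side by side. The 4 libraries of a line are listed as vehicle, roseoflavin, trametinib and combination throughout.

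CALR, whose product binds calcium and glycoproteins in the lumen, was the most abundant of the 10 in both lines. Its level was 430, 388, 451 and 461 TPM in AsPC-1 and 823, 724, 820 and 730 TPM in PANC-1. HSPA5, the BiP gene and the central chaperone of the pathway, was at 118, 113, 133 and 125 TPM in AsPC-1 and at 259, 307, 250 and 310 TPM in PANC-1. The PANC-1 libraries of both genes lay far above the AsPC-1 libraries, and within PANC-1 the 2 libraries with roseoflavin stood apart, below for CALR and above for HSPA5. HSP90B1, the ER form of HSP90, was at 144, 140, 155 and 149 TPM in AsPC-1 and at 203, 197, 200 and 192 TPM in PANC-1. HYOU1, a large relative of HSP70 that exchanges nucleotide on BiP, was at 45.4, 46.3, 49.9 and 51.5 TPM in AsPC-1 and at 156, 152, 150 and 155 TPM in PANC-1. HYOU1 had the widest gap between the lines of the 10, with a ratio of 3.44 between the vehicle libraries.

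PDIA4, an oxidoreductase that makes and breaks disulfide bonds, was at 180, 171, 189 and 191 TPM in AsPC-1 and at 388, 359, 378 and 369 TPM in PANC-1. Among the partners of BiP, DNAJB11 was at 13.9, 13.7, 15.5 and 15 TPM in AsPC-1 and at 34.6, 32.3, 33.9 and 31 TPM in PANC-1. DNAJB9, which also binds IRE1, was the least abundant of the 10 in AsPC-1, at 9.07, 10.5, 10.3 and 10.8 TPM. In PANC-1 it was at 16.8, 21.6, 16.3 and 20.1 TPM, and HERPUD1 was lower in the library with roseoflavin alone (18.9 TPM). For PDIA4, DNAJB11 and DNAJB9 the groups of 4 libraries were well apart. SDF2L1 was at 19.5, 17.1, 18.1 and 19.4 TPM in AsPC-1 and at 26.9, 26.6, 31.4 and 24.6 TPM in PANC-1. HERPUD1 was at 14.2, 12, 15 and 14.4 TPM in AsPC-1 and at 17.6, 18.9, 17.5 and 20.5 TPM in PANC-1. XBP1 was at 38.6, 36.8, 46.3 and 46.7 TPM in AsPC-1 and at 45.4, 44.2, 45.8 and 45.3 TPM in PANC-1. XBP1 was the exception to the gap between lines: the AsPC-1 libraries with trametinib lay above all 4 of PANC-1, and those without it lay below.

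**Figure D2:**
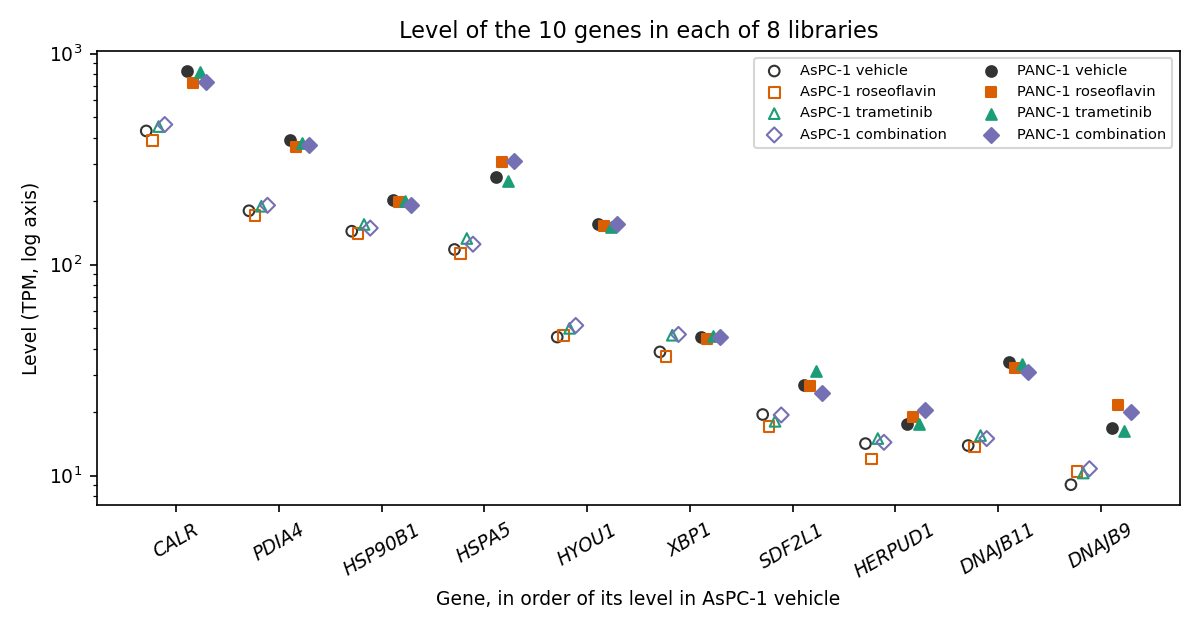
Level of each gene (TPM, log axis) in each of the 8 libraries, with AsPC-1 as open and PANC-1 as filled symbols and 1 point per library, in the order of the AsPC-1 vehicle level. PANC-1 lies above AsPC-1 for every gene but XBP1, from CALR at 823 TPM in PANC-1 vehicle to DNAJB9 at 16.8 TPM.

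The order of the levels was much the same in both lines. In the vehicle libraries of AsPC-1 it ran CALR, PDIA4, HSP90B1, HSPA5, HYOU1, XBP1, SDF2L1, HERPUD1, DNAJB11, DNAJB9. The ranges over 4 libraries overlapped between HYOU1 and XBP1 and between HERPUD1 and DNAJB11. In PANC-1 it ran CALR, PDIA4, HSPA5, HSP90B1, HYOU1, XBP1, DNAJB11, SDF2L1, HERPUD1, DNAJB9, and the ranges overlapped between DNAJB11 and SDF2L1 and between HERPUD1 and DNAJB9. CALR stood at the 99.4 percentile of the tested genes in PANC-1 and DNAJB9 at the 61.0 percentile.

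The fitted difference between the lines, PANC-1 minus AsPC-1 on the log2(TPM + 1) scale with both compounds in the model, was largest for HYOU1 at 1.65 (SE 0.0447, limma adjusted p = 1.38e-07). It was 1.19 (SE 0.0846) for HSPA5, 1.13 (SE 0.0509) for DNAJB11, 1.03 (SE 0.0398) for PDIA4, 0.84 (SE 0.0548) for CALR and 0.81 (SE 0.0650) for DNAJB9. SDF2L1 followed at 0.54 (SE 0.0730), HSP90B1 at 0.43 (SE 0.0369) and HERPUD1 at 0.40 (SE 0.0775, adjusted p = 0.00252). XBP1 was at 0.11 (SE 0.0630) and did not pass (adjusted p = 0.158). Of all genes tested, 62.3% were called higher in PANC-1, the background against which 9 of 10 is to be read. The median was 0.82 for the 10 genes and 0.55 for all genes. In all, 74.4% of calls were higher in PANC-1.

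That background depends on the scaling. When TPM was rescaled after leaving out the mitochondrial transcripts, 61.7% of calls were higher and the median of all genes moved to 0.25; under quantile normalization these were 52.6% and 0.042. Under either, 6 of the 10 genes were called higher and XBP1 was called lower, at -0.28 (rescaled) and -0.36 (quantile). HSPA5, DNAJB9, DNAJB11, PDIA4, CALR and HYOU1 kept their call. HSP90B1 (0.039 and 0.067), SDF2L1 (0.16 and 0.022) and HERPUD1 (0.034 and -0.13) lost theirs, and HERPUD1 turned its direction under quantile normalization. After rescaling, the ratio of the vehicle libraries ran from 0.93 for XBP1 to 2.72 for HYOU1.

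A few of the 10 genes overlap neighbours in the annotation. DNAJB11 lies under a second gene model on the same strand, ENSG00000283149, whose level was 149 to 162 TPM in AsPC-1 and 298 to 336 TPM in PANC-1, above DNAJB11 itself. HSP90B1 holds the microRNA gene MIR3652, listed at 1310 to 1430 TPM in AsPC-1 and 2660 to 3050 TPM in PANC-1, and CALR holds MIR6515 at 11.6 to 47.8 TPM. How reads over both genes were counted is not given in the sources used here. The levels of DNAJB11 and HSP90B1, and the differences fitted on them, are therefore uncertain. PNPLA8 and THAP5 overlap DNAJB9 on the opposite strand, as TBCCD1 does DNAJB11. Related copies such as HSPA5P1, HSP90B2P and CALR3 were at or below 0.758 TPM in every library.

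With roseoflavin, PANC-1 libraries had more HSPA5, DNAJB9 and HERPUD1 RNA and less CALR RNA, but no gene of the 10 passed the test. HSPA5 was at 259 TPM with vehicle and 307 TPM with roseoflavin, 18.7% more, and at 250 TPM with trametinib and 310 TPM with the combination, 24.2% more. The 2 libraries with roseoflavin thus lay above the 2 without it, whichever second treatment they had. DNAJB9 was 28.4% higher with roseoflavin than with vehicle and 23.3% higher with the combination than with trametinib. HERPUD1 was 7.30% and 16.9% higher in the same comparisons. The 3 genes have different tasks, as a chaperone, a co-chaperone and a degradation factor.

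The fitted difference for roseoflavin in PANC-1 was 0.28 for HSPA5 (SE 0.0669, limma adjusted p = 0.397), 0.31 for DNAJB9 (SE 0.0794, adjusted p = 0.409) and 0.16 for HERPUD1 (SE 0.0738, adjusted p = 0.600). HSPA5 and DNAJB9 reached an unadjusted limma p of 0.00815 and 0.0101, and 2 of 10 at an unadjusted p under 0.05 stands beside 9.47% of all genes tested. With adjustment, 0 of 10 members and 0.0% of all genes were called, and the fit had 3 residual degrees of freedom.

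The other 7 genes had fitted values near 0 or below it. CALR was 12.1% lower with roseoflavin than with vehicle and 11.1% lower with the combination than with trametinib, a fitted difference of -0.18 (SE 0.0722, limma adjusted p = 0.540). SDF2L1 was also at -0.18 (SE 0.103), though its libraries without roseoflavin were 26.9 and 31.4 TPM, a wide spread beside 26.6 and 24.6 TPM with it. DNAJB11 was at -0.11, PDIA4 at -0.07, HSP90B1 at -0.05, XBP1 at -0.03 and HYOU1 at 0.0046. Both PANC-1 libraries with roseoflavin lay above both without it for 3 of 10 genes (HSPA5, DNAJB9, HERPUD1), against 22.9% of all genes. Both lay below for 6 of 10 (HSP90B1, DNAJB11, XBP1, SDF2L1, PDIA4, CALR), against 22.7%. Both counts held after rescaling without mitochondrial transcripts. The median fitted difference was -0.04 for the 10 genes.

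These 2 groups, above and below, are orders of libraries that were not tested. The fitted values of HSP90B1 and XBP1 changed direction when a PANC-1 library was left out. The promoter matches are set beside the groups as a description only. Of the 4 genes with an ERSE, HSPA5 was above and HSP90B1, XBP1 and CALR were below. Of the 3 with an ERSE-II, HERPUD1 was above, SDF2L1 was below and HYOU1 overlapped. DNAJB9, which had neither, had the largest fitted value of the 10.

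In AsPC-1 the fitted values for roseoflavin ran from -0.14 to 0.13. HSPA5 was 4.36% lower with roseoflavin than with vehicle and 6.42% lower with the combination than with trametinib, with a fitted difference of -0.08 (SE 0.0669). HERPUD1 was 15.6% and 4.26% lower, with -0.14 (SE 0.0738), the lowest of the 10. DNAJB9 was 16.1% and 4.68% higher, with 0.13 (SE 0.0794), the highest. CALR was at -0.06: it was 9.96% lower with roseoflavin than with vehicle, but 2.29% higher with the combination than with trametinib. No gene passed, among the 10 or among all (0.0%; limma), and 0 of 10 and 1831 of all genes had an unadjusted p under 0.05. DNAJB9 was above in both libraries with roseoflavin, against 10.6% of all genes, and none of the 10 was below in both, against 21.6%. Mitochondrial transcripts took 44.1% of the TPM in the AsPC-1 roseoflavin library and 41.2% in vehicle. Against vehicle, 8 of 10 genes were lower in that library, and 4 of 10 were lower once these transcripts were left out.

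**Figure D3:**
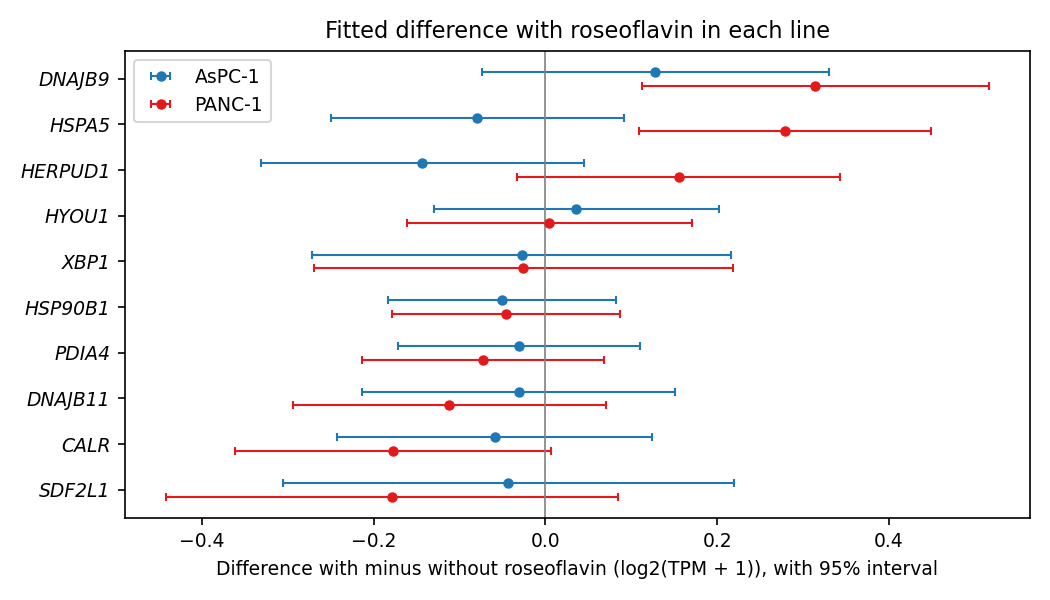
Fitted difference with minus without roseoflavin (x axis, log2(TPM + 1), points with 95% intervals from 8 libraries) for each gene in AsPC-1 (blue) and PANC-1 (red). HSPA5 and HERPUD1 lie on opposite sides of 0 in the 2 lines, and DNAJB9 lies at 0.13 and 0.31.

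The difference between the lines in the roseoflavin effect was tested directly. It was 0.36 for HSPA5 (SE 0.0947, unadjusted p = 0.0121, limma adjusted p = 0.385), 0.30 for HERPUD1 (SE 0.104, unadjusted p = 0.0342, adjusted p = 0.466) and 0.19 for DNAJB9 (SE 0.112, adjusted p = 0.638). None of the 10 passed, and 5 of all genes did (0.0261%). The 95% interval for HSPA5 ran from 0.12 to 0.60 before adjustment. With both lines together, roseoflavin gave 0.22 for DNAJB9 (unadjusted p = 0.0134), and 0 of 10 members passed, as did 0.0% of all genes, with 1358 genes at an unadjusted p under 0.05 (limma).

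With trametinib, all 10 genes had a fitted value above 0 in AsPC-1, against 56.0% of all genes. The value was highest for XBP1, but none of the 10 passed the test. XBP1 was at 38.6 TPM with vehicle and 46.3 TPM with trametinib, 20.0% more, and at 36.8 TPM with roseoflavin and 46.7 TPM with the combination, 27.0% more. Its 2 libraries with trametinib were close to each other and stood well clear of the 2 without. The fitted difference was 0.30 (SE 0.0459, unadjusted p = 0.00114, limma adjusted p = 0.289).

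The others were smaller: 0.16 for HERPUD1 (SE 0.114), 0.16 for CALR (SE 0.0696), 0.15 for HSPA5 (SE 0.119), 0.14 for HYOU1 (SE 0.0466) and 0.14 for DNAJB11 (SE 0.0530). PDIA4 was at 0.11, DNAJB9 at 0.10, HSP90B1 at 0.09 and SDF2L1 at 0.04. HYOU1, DNAJB11 and XBP1 had an unadjusted p under 0.05, 3 of 10, against 11.1% of all genes, and 0.0% of all genes passed with adjustment. The median was 0.14 for the 10 genes and 0.016 for all genes. Both AsPC-1 libraries with trametinib lay above both without it for 8 of 10 genes (HSPA5, HSP90B1, DNAJB11, XBP1, HERPUD1, PDIA4, CALR, HYOU1), against 24.0% of all genes, and for none did both lie below, against 13.3%. The overlap of DNAJB9 came from its roseoflavin library at 10.5 TPM, above trametinib alone at 10.3 TPM. That of SDF2L1 came from vehicle at 19.5 TPM, above both trametinib libraries at 18.1 and 19.4 TPM. With each of the 8 libraries left out in turn, the fitted value of XBP1 ran from 0.27 to 0.32. That of HERPUD1 ran from 0.0075, without the AsPC-1 roseoflavin library, to 0.32, without AsPC-1 vehicle. That of HSPA5 ran from 0.025, without the AsPC-1 trametinib library, to 0.28, without the AsPC-1 combination. That of CALR ran from 0.058, without the AsPC-1 combination, to 0.26, without AsPC-1 trametinib. DNAJB9 and SDF2L1 crossed 0.

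In PANC-1 the fitted values for trametinib ran from -0.07 for DNAJB9 to 0.05 for SDF2L1, and XBP1 was at 0.02 (SE 0.0459). None of the 10 passed (limma), and 2 of all genes did (0.0105%); none had an unadjusted p under 0.05. For no gene did both libraries with trametinib lie above both without it, against 16.1% of all genes, or below, against 11.6%. XBP1 held between 44.2 and 45.8 TPM in all 4 PANC-1 libraries. The difference between the lines in the trametinib effect was -0.27 for XBP1 (SE 0.0649, unadjusted p = 0.00782, limma adjusted p = 0.606), and 0.0% of all genes passed. With both lines together trametinib gave 0.16 for XBP1 (unadjusted p = 0.0416), and 0 of 10 members and 0.0% of all genes passed, with 938 genes at an unadjusted p under 0.05.

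**Figure D4:**
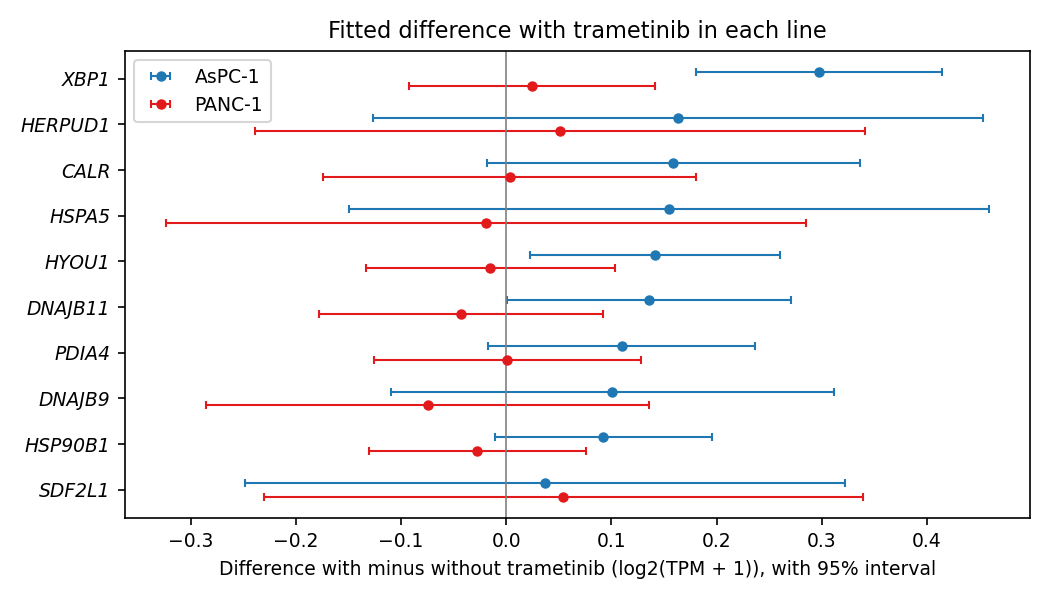
Fitted difference with minus without trametinib (x axis, log2(TPM + 1), points with 95% intervals from 8 libraries) for each gene in AsPC-1 (blue) and PANC-1 (red). All 10 AsPC-1 points lie above 0 (56.0% of all genes did), from 0.04 for SDF2L1 to 0.30 for XBP1, and the PANC-1 points lie between -0.07 and 0.05.

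Against vehicle, the signs of the combination were mostly those of trametinib alone in AsPC-1 and those of roseoflavin alone in PANC-1. In AsPC-1, 9 of 10 genes were higher with the combination than with vehicle and 10 of 10 were higher than with roseoflavin alone, while 6 of 10 were higher than with trametinib alone. Rescaled without mitochondrial transcripts, these counts were 9, 9 and 4 of 10. In PANC-1, 3 of 10 were higher with the combination than with vehicle (HSPA5, DNAJB9, HERPUD1), by 19.8%, 19.1% and 16.2%. CALR was 11.4% lower and DNAJB11 10.5% lower. These comparisons share libraries with those above and have 1 library on each side, and no share of all genes was computed for their counts. A term for interaction of the 2 compounds, fitted over both lines, called 0 of 10 members and 0.0% of all genes (limma; 536 genes at an unadjusted p under 0.05), and no member had an unadjusted p under 0.05.

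Related genes were followed in 6 lists. The 3 sensors with their activators hold 6 genes, and none passed in either line with either compound. With roseoflavin in PANC-1 they ran from -0.04 for EIF2AK3, the PERK gene, to 0.35 for ERN1, the IRE1 gene, with a median of 0.07. In AsPC-1 all 6 were below 0, with a median of -0.05 and ERN1 lowest at -0.11. Of all genes, 49.7% were above 0 with roseoflavin in PANC-1 and 38.9% in AsPC-1, where the median of all genes was -0.028. ERN1 was at 3.01 TPM with vehicle and 3.90 TPM with roseoflavin in PANC-1, and at 2.12 and 1.86 TPM in AsPC-1.

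The list of 20 other folding enzymes and co-chaperones had a median near 0 with roseoflavin in both lines, -0.02 in PANC-1 and -0.0081 in AsPC-1, and 0 of 20 passed. Its highest value in PANC-1 and its lowest in AsPC-1 were the same gene, ERO1A, the oxidase that recharges disulfide isomerases, at 0.54 (SE 0.108, limma adjusted p = 0.327) and -0.34 (SE 0.108, adjusted p = 0.475). ERO1A was at 94.5 TPM with vehicle and 136 TPM with roseoflavin in PANC-1, and at 107 and 98.8 TPM in AsPC-1. The fitted values also rest on the combination against trametinib, and this AsPC-1 pair differs by less than the fitted value. The difference between the lines was 0.88 and did not pass (adjusted p = 0.254). CRELD2 was lowest in PANC-1 at -0.24.

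Of the 14 genes of ER-associated degradation, 12 were above 0 with roseoflavin in PANC-1, against 49.7% of all genes, with a median of 0.06. They ran from -0.06 for FAF2 to 0.24 for EDEM1, a lectin that hands glycoproteins to degradation. In AsPC-1 the median was -0.04, and EDEM3 was lowest at -0.22. The 17 genes of translocation and ER export had medians of 0.03 in PANC-1 and 0.04 in AsPC-1. None of the 14 or the 17 passed in either line.

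The list named PERK and ATF4 arm stood farther from 0. The name is that of the list: the activity of PERK was not measured, and what moved these genes was not tested. All 10 of its genes were above 0 with roseoflavin in PANC-1, from 0.11 for PPP1R15B to 0.77 for DDIT3 (CHOP; SE 0.0492, limma adjusted p = 0.0614), with a median of 0.43. Of these, 9 had an unadjusted p under 0.05, against 9.47% of all genes, and 0 passed with adjustment. In AsPC-1 the median was -0.14, from -0.50 for DDIT4 to 0.08 for CHAC1. There 4 of the 10 had an unadjusted p under 0.05, each with a value below 0, against 9.58% of all genes, and 0 passed. DDIT3 was at 58.3 TPM with vehicle and 97.3 TPM with roseoflavin in PANC-1, and at 35.4 and 26.4 TPM in AsPC-1. DDIT3 and DDIT4 passed the test of the difference between the lines, DDIT3 at 1.19 (SE 0.0696) and DDIT4 at 0.91 (SE 0.0540), each with a limma adjusted p of 0.0383, against 0.0261% of all genes. Both calls were lost under quantile normalization (limma adjusted p = 0.0710) and after rescaling without mitochondrial transcripts (0.0977), where DDIT4 was at 0.86. They were also lost with no filter on low values (0.0532) and with line by compound terms for both compounds (0.221). Leaving out any 1 of the 8 libraries lost both calls as well. With a library left out, the values ran from 1.14 to 1.24 for DDIT3 and from 0.89 to 0.94 for DDIT4. The list named cytosolic heat shock chaperones holds 12 genes whose products serve outside the ER, among them HSPD1 and HSPE1 of the mitochondria. It had a median of -0.10 in PANC-1 and -0.07 in AsPC-1, and 0 passed. In PANC-1, 1 of 12 was above 0, against 49.7% of all genes.

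**Figure D5:**
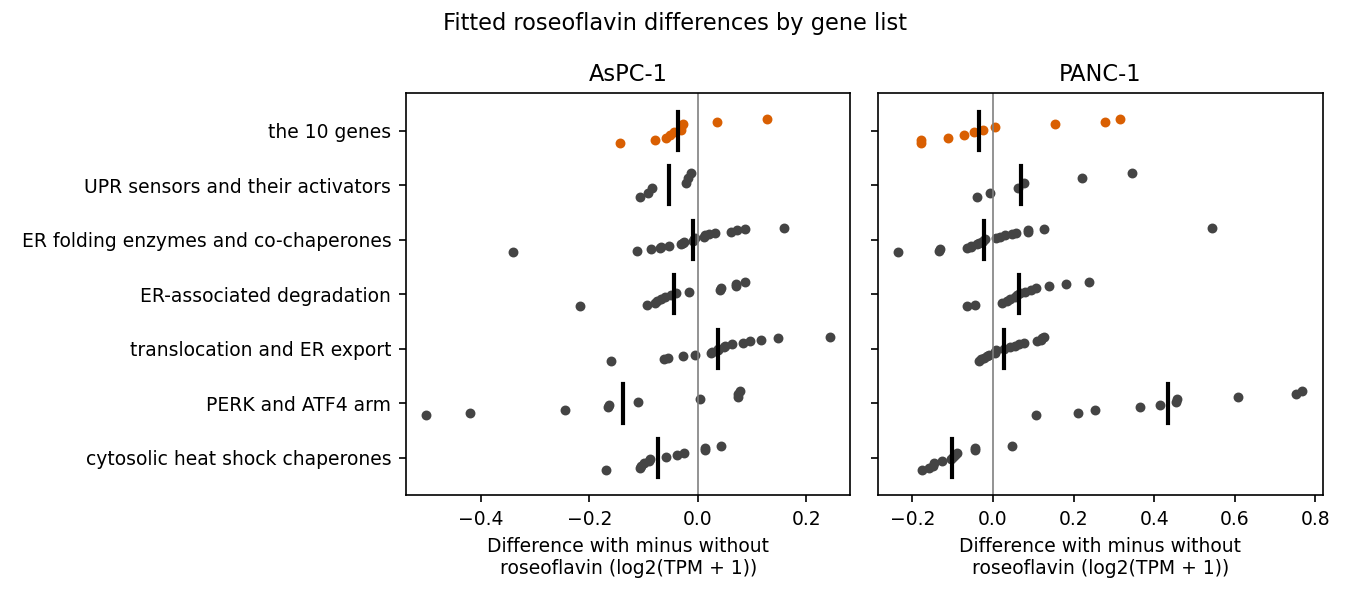
Fitted difference with minus without roseoflavin (x axis, log2(TPM + 1); the 2 panels have different ranges) for the genes of each list, 1 point per gene and a bar at the median. In PANC-1 the PERK and ATF4 arm has its median at 0.43 and the 10 genes described here at -0.04.

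With trametinib in AsPC-1, the lists also lay mostly above 0, as did 56.0% of all genes, and none of their genes passed. The medians were 0.12 for the sensors (6 of 6 above 0), 0.09 for the folding enzymes (16 of 20), 0.12 for degradation (12 of 14), 0.08 for translocation and export (16 of 17) and 0.10 for the PERK and ATF4 arm (9 of 10). The highest were ATF3 at 0.46, SEL1L at 0.27, SEC11C at 0.26 and DNAJC10 at 0.20, with TRIB3 at -0.13 and SEC61G at -0.18 lowest. The heat shock chaperones had a median of 0.01, with 9 of 12 above 0. In level, PANC-1 was called higher for 6 of 6 sensors, 15 of 20 folding enzymes, 12 of 14 degradation genes and 15 of 17 translocation and export genes. It was also called higher for 8 of 10 genes of the PERK and ATF4 arm and 10 of 12 heat shock chaperones. These stand beside 62.3% of all genes, a share that was 49.7% after rescaling without mitochondrial transcripts.

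The 10 genes did not move as 1 block within the lines. With each gene centred within its line, 34 of 45 pairs had a Pearson r above 0 over the 8 libraries, with a median of 0.43. PDIA4 and CALR had the highest at 0.95 and HSP90B1 with DNAJB11 reached 0.94. HSPA5 was close to HERPUD1 (0.83) and DNAJB9 (0.77) but not to CALR (-0.25), and DNAJB9 with SDF2L1 had the lowest at -0.63. All genes share the libraries and their total, so these values describe the 8 libraries and were not tested. The mean profile of the 10 genes, each centred within its line and divided by its SD, was lowest in AsPC-1 with roseoflavin (-1.17) and highest in AsPC-1 with trametinib (0.85), and lay between -0.11 and 0.15 in PANC-1. That low point depended on the scaling: rescaled without mitochondrial transcripts, the profile was lowest in AsPC-1 vehicle (-0.77), with AsPC-1 roseoflavin at -0.64 and trametinib again highest at 0.87, and PANC-1 ran from -0.37 to 0.42. Among 8620 other named genes that averaged 10 TPM or more, those closest to that profile were MARVELD2 (r = 0.997), TDP2 (0.995), ANXA4 (0.993), CHP1 (0.993), GPA33 (0.991), DZIP3 (0.987), TTC1 (0.986), ARL1 (0.983), SH3RF1 (0.982) and TSPAN3 (0.981). These 10 were the highest of all those candidates over 8 libraries, and no test was made of them. After rescaling, 4 of them (TDP2, CHP1, TTC1, ARL1) were still among the 10 closest, and r for the 10 ran from 0.880 for GPA33 to 0.992 for TTC1.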

How the data were processed

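Per the labels' protocols, polyadenylated RNA was made into libraries with a stranded kit. The submitters' processing notes name STAR 2.7.3a, HTSeq 2.0.2 and build hg38; the annotation and counting options are not given in the sources used here. The authors deposited 1 table in TPM per gene for 8 libraries, and per the file headers each column names a line and a treatment. TPM keeps no depth, so no counting error was computed. Blank rows (985926) were dropped, leaving 62649 genes. The scale was log2(TPM + 1), which makes changes of low genes look smaller. Genes that reached 1 TPM in 2 libraries (19122) entered limma 3.58.1 under R 4.3.3, using a variance trend, with Benjamini-Hochberg adjustment over all of them and a threshold of 0.05. Effects over both lines and the level used line, roseoflavin and trametinib as terms (4 residual degrees of freedom); effects within a line used a term per line (3). The second compound thus stands in for replicates, since nothing names separate cultures. The p-values rest on the residual spread of the libraries about each model, not on a spread between replicate cultures. Effects within a line held the second compound to the same effect in both lines. A difference between the lines in that effect therefore enters the SE, which both lines share. The scripts were tested on simulated data. The members and the 6 pathway lists were chosen with earlier results of these data known. Named from the lists are the highest and lowest value per comparison and genes that passed; likeness was ranked over genes averaging 10 TPM or more. Promoters are from RefSeq (10 of 10 genes matched). Alternatives were the scaling, pseudocount, filter, model terms and each library left out.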

Additional observations from a re-analysis of the deposited data

Results flagged for a closer look

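Several genes had values of opposite direction in the 2 lines in every matched pair of libraries with and without a compound. The difference between the lines in the roseoflavin effect, PANC-1 minus AsPC-1, was 0.36 for HSPA5 (limma adjusted p = 0.385), higher with roseoflavin in both PANC-1 comparisons and lower in both AsPC-1 comparisons. For HERPUD1, in the same pattern, it was 0.30 (adjusted p = 0.466). For trametinib, the values were above 0 in AsPC-1 and below 0 in PANC-1. The difference was -0.12 for HSP90B1 (adjusted p = 0.718), -0.18 for DNAJB9 (adjusted p = 0.794) and -0.18 for DNAJB11 (adjusted p = 0.676). None of the 5 differences passed the test. With 1 library left out at a time, DNAJB9 with trametinib crossed 0 in AsPC-1 (-0.0063 to 0.21) and in PANC-1 (-0.16 to 0.0065).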

How the results depend on the processing

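No member passed in any treatment comparison under any alternative; the smallest limma adjusted p was 0.0794, for XBP1 with trametinib in AsPC-1 when the fit kept RefSeq mRNAs averaging 10 TPM or more, a filter chosen after seeing the data. Of 710 alternative values of 48 fitted results, 664 kept direction and call. In 30 a call was lost (6 of a line level, 24 of DDIT3 and DDIT4), and in 2 one was gained, both for the level of XBP1. The direction turned in 12 with a library left out and in 5 otherwise. The counts of all genes called for the treatments moved with the filter, and the cause was not tested. With that RefSeq filter, trametinib over both lines called 1, roseoflavin 72 in AsPC-1 and 75 in PANC-1, trametinib 17 in AsPC-1 and 0 in PANC-1, the roseoflavin difference 103 and the level 7236, where fewer genes were tested. With a mean of at least 10 TPM, roseoflavin in PANC-1 called 22, trametinib in PANC-1 0 and the level 8388. With no filter, roseoflavin called 10 in AsPC-1 and 2 in PANC-1, trametinib 11 and 33, the roseoflavin difference 0 and the trametinib difference 2. With a pseudocount of 0.1, roseoflavin called 1 in AsPC-1 and 2 in PANC-1, trametinib in PANC-1 8, and the differences 8 (roseoflavin) and 4 (trametinib). Under quantile normalization trametinib in PANC-1 called 1 and the roseoflavin difference 0; rescaled without mitochondrial genes the differences called 0 (roseoflavin) and 2 (trametinib). With both line by compound terms, trametinib in PANC-1 and the roseoflavin difference called 0, and leaving out 1 library at a time gave 0 to 0 for each.

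The level of XBP1 turned to -0.36 (quantile) and -0.28 (rescaled), that of HERPUD1 to -0.13 (quantile), and HYOU1 with roseoflavin in PANC-1 to -0.0072 (quantile) and -0.032 (rescaled). Leaving out 1 library at a time gave these ranges across 0: -0.079 to 0.089 for HYOU1, -0.12 to 0.073 for XBP1 and -0.092 to 3.5e-05 for HSP90B1 with roseoflavin in PANC-1; -0.17 to 0.054 for CALR with roseoflavin in AsPC-1; -0.0063 to 0.21 for DNAJB9 and -0.099 to 0.17 for SDF2L1 with trametinib in AsPC-1; and -0.16 to 0.0065 for DNAJB9 and -0.099 to 0.21 for SDF2L1 with trametinib in PANC-1. The labels carry no replicate numbers, so there was no replicate to block on; libraries are matched by the second compound, which the models hold as a term.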
